A study of Mus musculus with 6 samples.

Results

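The genes of the MHC class II pathway and their activator Ciita were followed in 6 B16F10 tumours, 3 untreated and 3 treated in vivo with vorinostat. The 10 genes are H2-Aa, H2-Ab1, H2-Eb1, H2-DMa, H2-DMb1, H2-DMb2, H2-Oa, H2-Ob, Cd74 and Ciita. They were chosen with earlier results of these data known and found by symbol in the GRCm38 annotation. Each matched 1 of the 44679 gene identifiers in every table. B16F10 is a mouse melanoma cell line, and the labels describe the samples as skin tumours, with RNA taken from pellets of tumour cells. No genotype, host strain, age, vorinostat dose or length of treatment is given, and both groups carry the same tumour line with no other agent named. Vorinostat is an inhibitor of histone deacetylases. Nothing in the labels says whether leukocytes were removed, or whether the tumours of a group came from separate mice, so the p-values measure only the spread between these samples.

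MHC class II molecules are pairs of an alpha and a beta chain that show peptides from engulfed proteins to CD4+ T cells, mainly on dendritic cells, macrophages and B cells. The invariant chain, made from Cd74, holds the new pair and fills its groove. H2-DM then helps to exchange the remaining fragment for a peptide, and H2-DO restrains H2-DM. CIITA does not bind DNA itself but joins a complex of RFX, NF-Y and CREB proteins on short promoter boxes of these genes, and interferon gamma can switch Ciita on in cells outside the immune system, melanoma cells among them.

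The promoter stretches below show the boxes that this complex is known for, which the choice of the genes by symbol did not use. RefSeq promoter windows (GRCm38.p6, 250 bases before to 50 bases after a start) were at hand for 7 of the 10 genes, with 2 windows for H2-DMa. There was none for H2-Ab1, Cd74 and Ciita. Each line holds 67 bases, 5′ to 3′ on the gene's own strand, and capitals mark the Y box TGATTGG, the X box AACNGATG or the X2 box TGACGTCA.
H2-Eb1: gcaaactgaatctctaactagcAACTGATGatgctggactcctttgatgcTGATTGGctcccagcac
H2-DMb1: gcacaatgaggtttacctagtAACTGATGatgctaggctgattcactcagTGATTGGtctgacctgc
H2-DMb2: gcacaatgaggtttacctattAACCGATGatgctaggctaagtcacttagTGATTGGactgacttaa
H2-Aa: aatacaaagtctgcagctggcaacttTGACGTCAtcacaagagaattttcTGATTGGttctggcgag
H2-Oa: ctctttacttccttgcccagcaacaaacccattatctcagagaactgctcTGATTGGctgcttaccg
H2-Ob: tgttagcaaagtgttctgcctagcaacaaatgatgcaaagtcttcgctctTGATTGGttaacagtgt
The stretches lie at chr17:34305756-34305822, chr17:34153078-34153144, chr17:34145107-34145173, chr17:34287857-34287923, chr17:34092284-34092350 and chr17:34238796-34238862, in the order printed. H2-Aa is on the minus strand and the other 5 are on the plus strand. The Y box, read by NF-Y, was in the windows of 6 of the 7 genes, with its first base between 45 and 92 bases before the start. Both windows of H2-DMa lacked these letters. The exact letters of the X box, read by RFX, preceded the Y box in H2-Eb1 with 20 bases between them, and in H2-DMb1 and H2-DMb2 with 21. Only these letters were searched, so an X box that departs from them in any other gene would not be marked. H2-Aa held the X2 box, the letters that CREB proteins read. The box letters were written with these promoters in view, so the matches are a description. Searched on both strands, TGATTGG was in 7.82% of 32851 windows, AACNGATG in 2.32% and TGACGTCA in 1.79%. An X box followed by a Y box 15 to 25 bases on was in 5 windows, or 0.0152%, those of H2-Eb1, H2-DMb1, H2-DMb2, H2-Eb2 and BC051142.

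The 6 libraries held between 11322234 and 28863700 reads assigned to genes, and they were far from alike. Mitochondrial ribosomal RNA took 25.3%, 13.3% and 55.9% of the reads in the untreated tumours numbered 1, 2 and 3, and 21.5%, 14.4% and 23.5% in the vorinostat tumours numbered likewise. In the same order of tumours, 12 genes of satellite-like repeats took 0.323%, 9.39%, 0.168%, 1.57%, 7.65% and 20.9%. The summed level of 1491 chemoreceptor genes (olfactory, vomeronasal and bitter taste receptors) was 215.5 CPM in vorinostat tumour 3 and between 36.2 and 72.5 CPM in the other 5 tumours. Untreated tumour 3 and vorinostat tumour 3 stood apart by these measures. In the labels, untreated tumours 1 and 2 carry G number 1 and untreated tumour 3 carries 2. Vorinostat tumours 1 and 2 carry G number 3 and vorinostat tumour 3 carries 4. Tumour 3 of each group thus also differs from its group in this number, whose meaning the labels do not state. CPM are estimated counts relative to the library total after edgeR's TMM scaling, whose factor was 0.364 in untreated tumour 3 and between 0.832 and 1.65 elsewhere. A CPM in untreated tumour 3 is therefore measured against a total reduced by that factor. The melanocyte genes were abundant in every tumour, with Pmel between 1308 and 2144 CPM and Mitf between 182 and 230 CPM, which fits the labelled cell line. A detection limit of 3 reads corresponded to 0.114 to 0.285 CPM.

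Class II transcripts were found in every tumour, at between 706 and 2897 reads over the 10 genes. Levels between genes were compared in TPM, the deposited value per transcript length. Cd74 was the most abundant of the 10 in 5 of 6 tumours, at 15.9 ± 2.26 TPM in untreated (SD, n = 3) and 14.3 ± 5.91 TPM in vorinostat tumours (SD, n = 3). H2-Ab1 at 13.2 ± 1.85 TPM and H2-Aa at 12.9 ± 0.781 TPM in untreated tumours (SD, n = 3) did not differ beyond their spread from each other. H2-Eb1 was the fourth in all 6 tumours, at 7.99 ± 0.877 TPM in untreated and 6.82 ± 1.89 TPM in vorinostat tumours (SD, n = 3 each). The peptide editors H2-DMb1 and H2-DMa followed, at 2.70 ± 1.45 and 1.55 ± 0.652 TPM in untreated tumours (SD, n = 3). H2-DMb2, H2-Oa, H2-Ob and Ciita stayed between 0.0178 and 1.06 TPM in all 6 tumours. The low level of Ciita, from 0.137 to 0.279 TPM, stood beside many times more TPM for Cd74, H2-Ab1, H2-Aa and H2-Eb1. H2-Ob was below Ciita in every tumour except vorinostat tumour 1, where it was at 0.236 against 0.137 TPM.

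**Figure D1:**
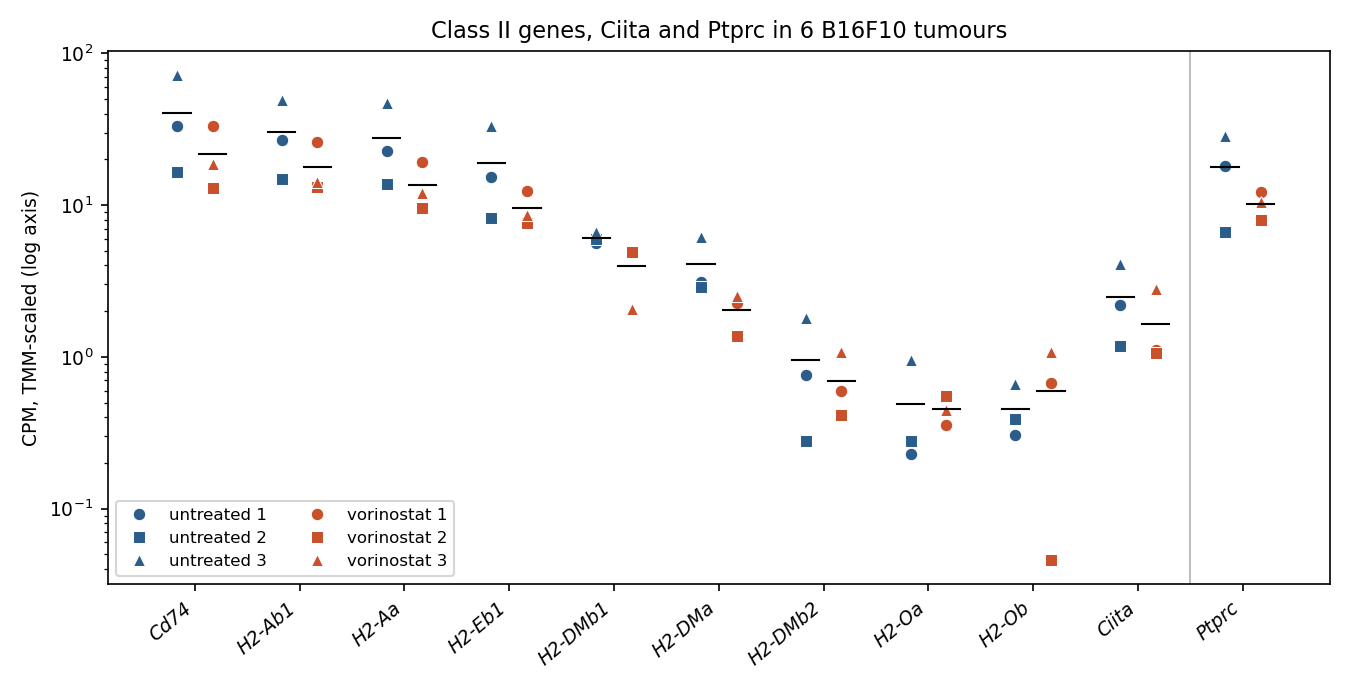
CPM after TMM scaling (log axis) of the 10 class II pathway genes and Ptprc in each tumour, with circles, squares and triangles for tumours 1, 2 and 3 of a group, blue for untreated and orange for vorinostat, and a bar at the group mean. Untreated tumour 3 is the highest of the 6 for 10 of the 11 genes, and the groups separate only for H2-DMa and H2-DMb1.

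The chains of the class II molecules had lower means in the vorinostat tumours, but the groups overlapped. H2-Aa (ENSMUSG00000036594), the alpha chain of the I-A molecule, was at 22.5, 13.8 and 47.1 CPM in the 3 untreated tumours, in the order 1, 2, 3, and at 19.1, 9.60 and 11.9 CPM in the 3 vorinostat tumours, in the same order. Vorinostat tumour 1 lay above untreated tumour 2, and untreated tumour 3 was above all others. The mean was 27.8 ± 17.3 CPM without and 13.6 ± 4.96 CPM with vorinostat (SD, n = 3 each), a log2 fold change of -1.01 with SE 0.38 by edgeR's quasi-likelihood fit. H2-Ab1 (ENSMUSG00000073421), the I-A beta chain, was at 27.0, 14.8 and 49.1 CPM untreated and at 26.0, 13.2 and 14.3 CPM with vorinostat. Here vorinostat tumour 1 was close to untreated tumour 1, and the log2 fold change was -0.74 with SE 0.37. H2-Eb1 (ENSMUSG00000060586), the beta chain of the I-E molecule, was at 15.4, 8.25 and 33.4 CPM against 12.3, 7.58 and 8.61 CPM. Untreated tumour 2 lay among the vorinostat tumours, and the log2 fold change was -0.97 with SE 0.40, and the edgeR adjusted p was 0.743 for each of these 3 chains. The usual partner of H2-Eb1 appears in the annotation as the pseudogene H2-Ea-ps, which had at most 4 reads in any library, and the related gene H2-Eb2 had at most 8.

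Cd74 (ENSMUSG00000024610), the invariant chain, had nearly the same order of tumours. It was at 33.3, 16.4 and 71.9 CPM untreated against 33.4, 13.05 and 18.6 CPM with vorinostat. Vorinostat tumour 1 was close to untreated tumour 1, and the 2 lowest vorinostat tumours lay on either side of untreated tumour 2. Its log2 fold change was -0.88 with SE 0.46, again at an edgeR adjusted p of 0.743. The 4 abundant genes kept nearly the same order of tumours, with Pearson r between 0.975 and 0.991 for each pair over the 6 tumours in log2(CPM + 0.5), a description of 6 libraries that share their scaling. By the mean of the 4, untreated tumour 3 came first, followed by untreated tumour 1, vorinostat tumour 1, untreated tumour 2, vorinostat tumour 3 and vorinostat tumour 2. Untreated tumour 2 and vorinostat tumour 3 differed by under 0.01 on that log2 scale, at 3.75 and 3.74.

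The genes of the peptide editor H2-DM differed from this order. H2-DMa (ENSMUSG00000037649), its alpha chain, was at 3.13, 2.90 and 6.18 CPM untreated and at 2.26, 1.38 and 2.51 CPM with vorinostat. All 3 vorinostat tumours lay below all 3 untreated tumours, and the log2 fold change was -0.98 with SE 0.41. H2-DMb1 (ENSMUSG00000079547), a beta chain, was at 5.65, 6.02 and 6.66 CPM against 4.91, 4.87 and 2.06 CPM. Its untreated tumours were close together and vorinostat tumour 3 was the lowest, at a log2 fold change of -0.59 with SE 0.30, and both genes had an edgeR adjusted p of 0.743. H2-DMb2 (ENSMUSG00000037548), the other beta chain, was at 0.763, 0.279 and 1.81 CPM against 0.594, 0.414 and 1.08 CPM, with full overlap and -0.44 on the log2 scale with SE 0.85. The values of H2-DMa are uncertain, since its transcripts overlap those of Brd2 on the opposite strand, which had 8892 reads over the 6 libraries. No source used here states the strand setting of the counting. The effective length that Salmon gave H2-DMa also varied, at 1311, 999 and 1324 bases in untreated and 937, 1293 and 681 in vorinostat tumours. That length enters its TPM, and its part in the TPM results was not tested.

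The division of reads between H2-DMb1 and H2-DMb2 is uncertain too, because the transcripts of the 2 genes share 517 stretches of 31 bases, or 37.6% of those of H2-DMb1 and 29.7% of those of H2-DMb2. Within their summed reads, H2-DMb2 had 11.9%, 4.42% and 21.3% without treatment and 10.8%, 7.83% and 34.3% with it. The share of 34.3% in vorinostat tumour 3 rested on 12 of 35 reads, with a 95% Wilson interval from 20.8% to 50.8%, which covers counting error only. That interval lay above the intervals of untreated tumours 1 and 2 and of vorinostat tumours 1 and 2, and overlapped that of untreated tumour 3, from 14.1% to 30.95%. The effective length that Salmon gave H2-DMb2 was 491 bases in vorinostat tumour 3 and between 1078 and 1221 elsewhere. With both genes summed before the fit, the log2 fold change was -0.57.

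H2-DO, the inhibitor of H2-DM, was near the detection limit. H2-Oa (ENSMUSG00000024334) had 6, 5 and 10 reads in untreated and 9, 12 and 5 reads in vorinostat tumours, and it did not pass the filter on low counts. H2-Ob (ENSMUSG00000041538) had 8, 7 and 7 reads against 17, 1 and 12, which is 0.305, 0.390 and 0.666 CPM against 0.673, 0.0459 and 1.08 CPM. The single read in vorinostat tumour 2 is under the detection limit, and the log2 fold change of 0.39 (SE 1.03) was not distinguishable from 0 at this depth.

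Ciita (ENSMUSG00000022504), the activator, was at 2.21, 1.17 and 4.09 CPM untreated and at 1.11, 1.06 and 2.78 CPM with vorinostat, from 21 to 58 reads. The groups overlapped, with vorinostat tumour 3 above 2 of the 3 untreated tumours, and edgeR gave -0.61 on the log2 scale (SE 0.59, adjusted p = 0.846). Vorinostat tumour 1 was nearly the lowest for Ciita while it was the highest of its group for the 4 abundant genes. Vorinostat tumour 3 was the highest of its group for Ciita and the middle one for the 4 genes. As a share of all reads of the 10 genes, Ciita took between 1.10% and 2.04% in 5 tumours and 4.39% in vorinostat tumour 3, which rests on 31 reads (95% Wilson interval 3.11% to 6.17%). The interval covers counting error only, and the highest upper bound in the other 5 was 3.04%. The same tumour had the highest satellite share and the highest chemoreceptor level, and their part in this value was not tested. Ciita lies at chr16:10480059-10528418 (GRCm38) and overlaps Dexi on the opposite strand, which had 486 reads over the 6 libraries.

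Over the 9 members that passed the filter on low counts, 8 had a lower fitted value with vorinostat and 1 a higher one, and none passed the test. The median log2 fold change was -0.74, while the median of all 14776 genes tested was 0.03 and 45.9% of them were lower. No gene of the 14776 had an edgeR adjusted p under 0.05, that is 0%, and the smallest was 0.316. At an unadjusted edgeR p under 0.05, 3 members were lower, H2-Aa, H2-Eb1 and H2-DMa. Their unadjusted values from the fit across all genes were 0.0233, 0.0334 and 0.0346. At that threshold, 2.92% of all genes tested were lower. The members were chosen with earlier results of these data known, so these counts beside those of all genes are a description. H2-Aa and H2-Eb1 had a Pearson r of 0.986 over the 6 tumours, so they are not separate results. Unadjusted, 927 genes or 6.27% passed in either direction. The alternative tools called 11 genes (DESeq2) and 0 genes (limma-voom), with no member among them. The groups were apart, with vorinostat below, for 2 of the 9 members, against 5.53% of all genes tested.

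Single tumours decided the size of the difference. Without untreated tumour 3 the median over the members was -0.25, and without untreated tumour 2 it was -1.09. Leaving out untreated tumour 2, edgeR called 121 of 16438 genes (0.736%), among them H2-Aa and H2-Eb1 at adjusted p = 0.0389 and 0.03295, and Ptprc at 0.0191. Without vorinostat tumour 1 the median was -1.11 and no member was called. Leaving out both untreated tumour 3 and vorinostat tumour 3 gave -0.23. With no filter on low counts beyond 1 read, 156 of 33106 genes (0.471%) were called, and H2-Aa, H2-Eb1 and Cd74 were among them, all lower, as was Ptprc (-0.85 on the log2 scale, edgeR adjusted p = 0.0346). With the log2 of the satellite share of each library as a covariate, the median over the members was -0.052 and that of all genes 0.021. H2-Ab1 and Cd74 turned to 0.10 and 0.16. The share itself ran from 0.168% to 9.39% in untreated and from 1.57% to 20.9% in vorinostat tumours.

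**Figure D2:**
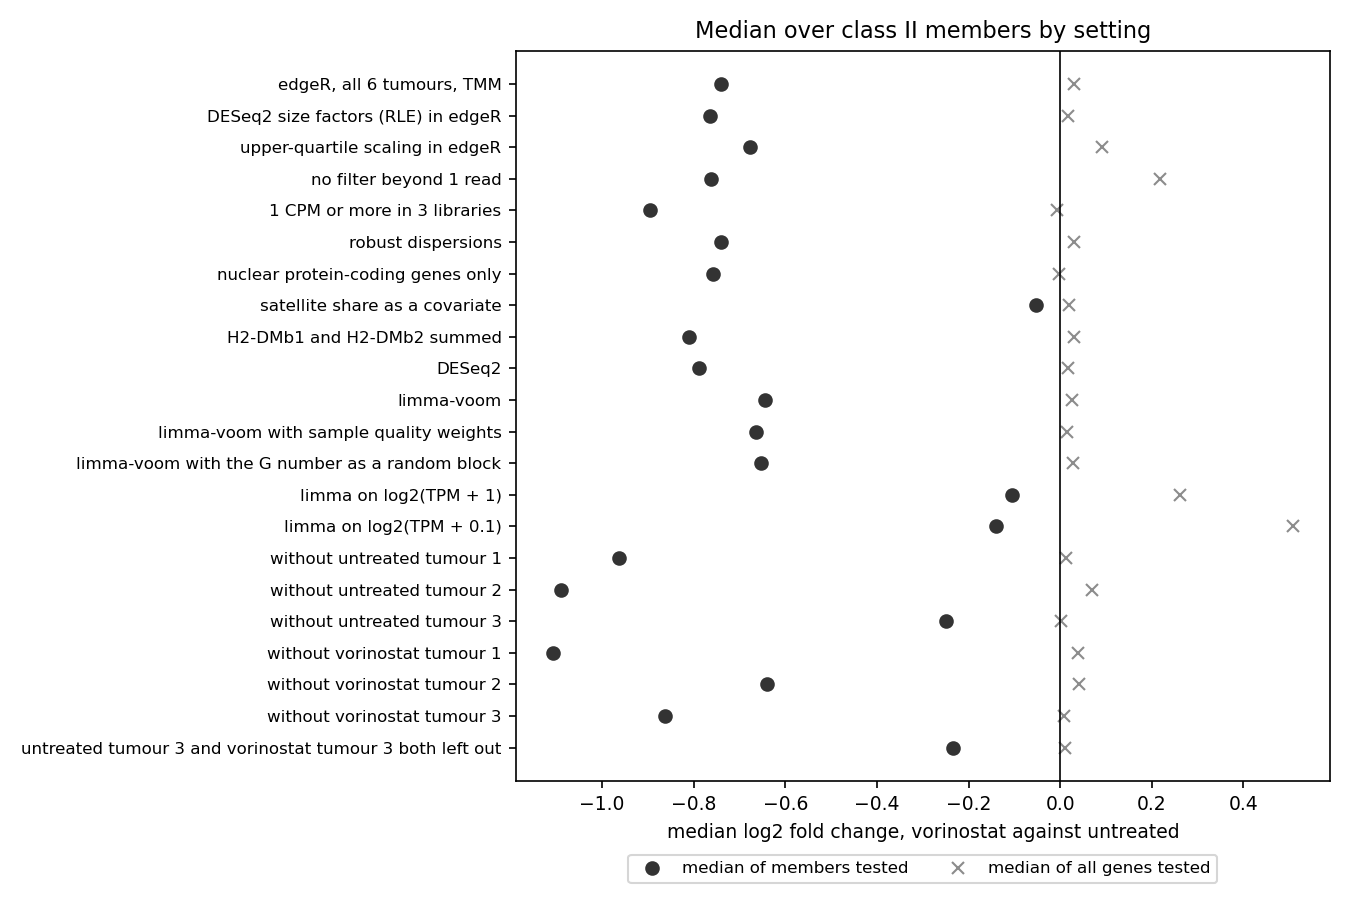
Median log2 fold change, vorinostat against untreated, over the class II members tested (filled points) and over all genes tested (crosses) under each setting. The members' median stays below 0 in every setting shown, between -1.11 and -0.052, and lies nearest to 0 with the satellite covariate, on the TPM scale and without untreated tumour 3.

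The height of untreated tumour 3 depended on the denominator. Summed over the 10 genes, its level was 221.9 CPM, against 110.5 and 64.3 CPM in untreated tumours 1 and 2 and 100.8, 51.8 and 63.3 CPM in vorinostat tumours 1, 2 and 3. As plain CPM of all assigned reads, without TMM scaling, the class II reads were 120, 102 and 80.8 in untreated tumours. They were 116, 85.4 and 52.4 in vorinostat tumours, so untreated tumour 3 was then the lowest of its group. That total includes mitochondrial ribosomal RNA, which took 55.9% of the reads in untreated tumour 3. As plain CPM of nuclear protein-coding reads only, the class II reads were 394, 240 and 785 in untreated tumours. They were 368, 194 and 241 in vorinostat tumours, so untreated tumour 3 was then the highest of the 6. A fit of nuclear protein-coding genes only gave a median of -0.76 over the members and -0.003 over all genes. In TPM, H2-Aa was at 13.8, 12.6 and 12.2 in untreated and 13.4, 10.4 and 6.88 in vorinostat tumours, and Cd74 at 18.0, 13.5 and 16.3 against 20.8, 12.6 and 9.40. The untreated tumours were close together on that scale, and vorinostat tumour 3 was the lowest of the 6. A limma fit of log2(TPM + 1) gave a median of -0.11 over the members and 0.26 over all genes, so the members' median minus that of all genes was -0.37 there, against -0.77 on the TMM scale. With log2(TPM + 0.1) the medians were -0.14 and 0.51, a gap of -0.65. H2-DMb2 turned to 0.22 in TPM, while the other 7 members that were lower on the TMM scale stayed at or below 0, Ciita at -9.6e-05.

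**Figure D3:**
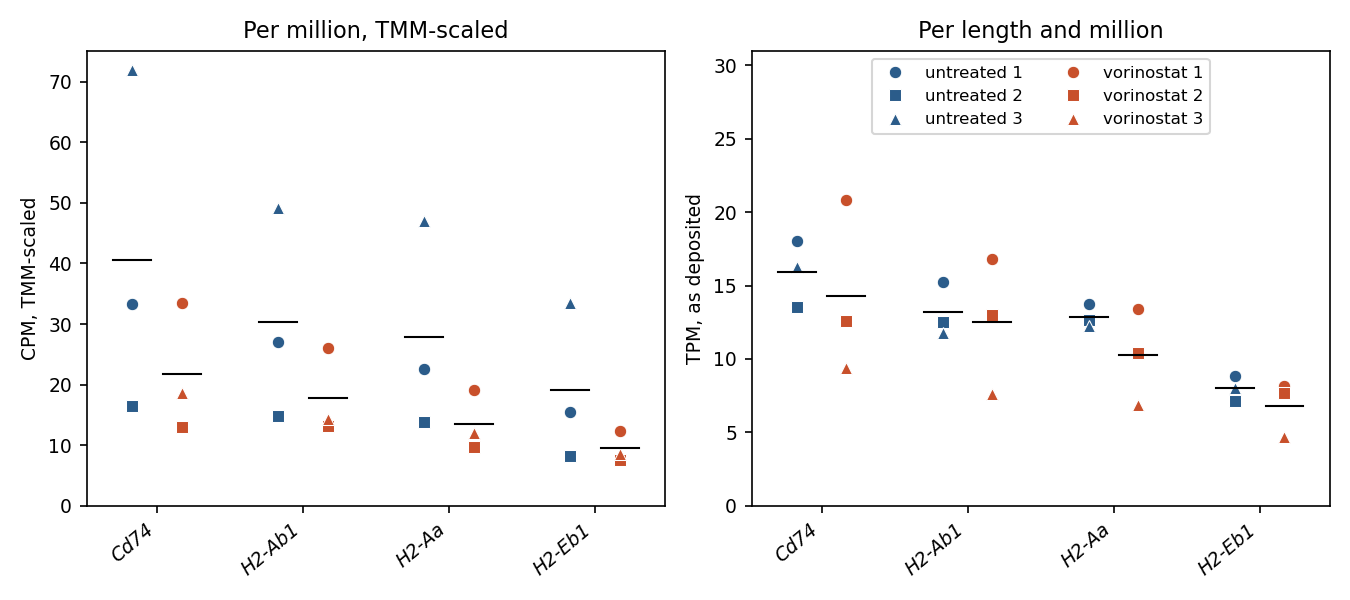
The 4 abundant class II genes in each tumour as CPM after TMM scaling (left) and as deposited TPM (right), with circles, squares and triangles for tumours 1, 2 and 3, blue for untreated, orange for vorinostat, and a bar at the group mean. Untreated tumour 3 is the highest tumour in CPM and lies close to its group in TPM, where vorinostat tumour 3 is the lowest.

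Class II transcripts in a bulk tumour can vary with the number of leukocytes, and fewer such cells cannot be told apart from less class II RNA in each cell. The members were therefore also set against Ptprc, which encodes CD45, the surface phosphatase of leukocytes. Ptprc was at 18.2, 6.69 and 28.3 CPM untreated and at 12.2, 7.95 and 10.5 CPM with vorinostat. Its difference of -0.78 on the log2 scale (SE 0.39; edgeR adjusted p = 0.743) is nearly the members' median. Per Ptprc read, H2-Aa was at 1.24, 2.06 and 1.66 untreated and at 1.57, 1.21 and 1.14 with vorinostat. H2-Ab1 was at 1.49, 2.22 and 1.73 against 2.13, 1.66 and 1.36. Untreated tumour 2 was the highest for both, and the groups overlapped.

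H2-Eb1 per Ptprc read was at 0.849, 1.23 and 1.18 against 1.01, 0.954 and 0.821. Cd74 was at 1.83, 2.46 and 2.54 against 2.74, 1.64 and 1.77, so that vorinostat tumour 1 was the highest of the 6. Ciita was at 0.122, 0.175 and 0.144 against 0.0909, 0.133 and 0.265, with vorinostat tumours at both ends. No member tested had separate groups on this scale, where 0.169% of all genes had all vorinostat tumours lower.

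The difference in log2 ratio to Ptprc was -0.32 for H2-Aa (SE 0.25, exact permutation p = 0.2), -0.21 for H2-Eb1 (SE 0.19, exact p = 0.3), -0.17 for Cd74 (SE 0.27, exact p = 0.7) and -0.08 for H2-Ab1 (SE 0.25, exact p = 0.7). It was -0.33 for H2-DMa (SE 0.42), -0.13 for H2-DMb1 (SE 0.75), 0.39 for H2-DMb2 (SE 0.33), 0.52 for H2-Ob (SE 0.93) and 0.05 for Ciita (SE 0.46). With 3 tumours against 3, the smallest two-sided p that these 20 splits allow is 0.1, and no member's p adjusted over all genes was under 0.704. The median difference was -0.13 over the 9 members and 0.62 over all 14775 genes. In an edgeR fit with Ptprc reads as library size, the median over all genes was 0.37, and it was 0.023 without untreated tumour 3 and 1.20 without untreated tumour 2. The members' median minus that of all genes ran from -1.10 to -0.13 when 1 tumour was left out. With all 6 tumours in that fit, 0% of genes and no member were called, and 1.71% of genes had an unadjusted p under 0.05. The noise of 1 denominator gene moves all genes together on that scale. Without untreated tumour 2, that fit called 8116 genes (54.9%) and no member.

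The members were also set against lists of leukocyte genes. The summed class II level per summed level of 8 pan-leukocyte genes was 0.665, 0.578 and 0.928 untreated against 0.683, 0.347 and 0.465 with vorinostat, with overlap. Per summed level of 10 macrophage genes it was 1.04, 1.06 and 1.23 in untreated and 0.867, 0.407 and 0.628 in vorinostat tumours, with all vorinostat tumours lower. Per summed level of 10 dendritic cell genes it was 7.60, 5.66 and 9.52 against 5.44, 4.33 and 2.89, again apart. Per B and plasma cell genes it was 14.1, 14.1 and 11 against 15.4, 7.61 and 4.84, with overlap.

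By single members, H2-Aa, H2-Ab1, H2-Eb1 and H2-DMa had separate groups per macrophage level, 4 of 9 members against 2.64% of all genes. H2-Aa, H2-Eb1 and H2-DMa did so per dendritic cell level, 3 of 9 against 2.74%, and H2-DMa alone per pan-leukocyte level, against 1.16%. In edgeR fits on the 3 scales the median over the members was -0.78, -0.73 and -0.49, with 2, 6 and 1 genes called and no member among them. The median over all genes was -0.23, -0.10 and 0.14 on the same scales. The dendritic cell and B cell lists rest on low summed levels, from 11.4 to 23.3 and from 4.57 to 20.2 CPM, and the lists were chosen with results of these data known.

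**Figure D4:**
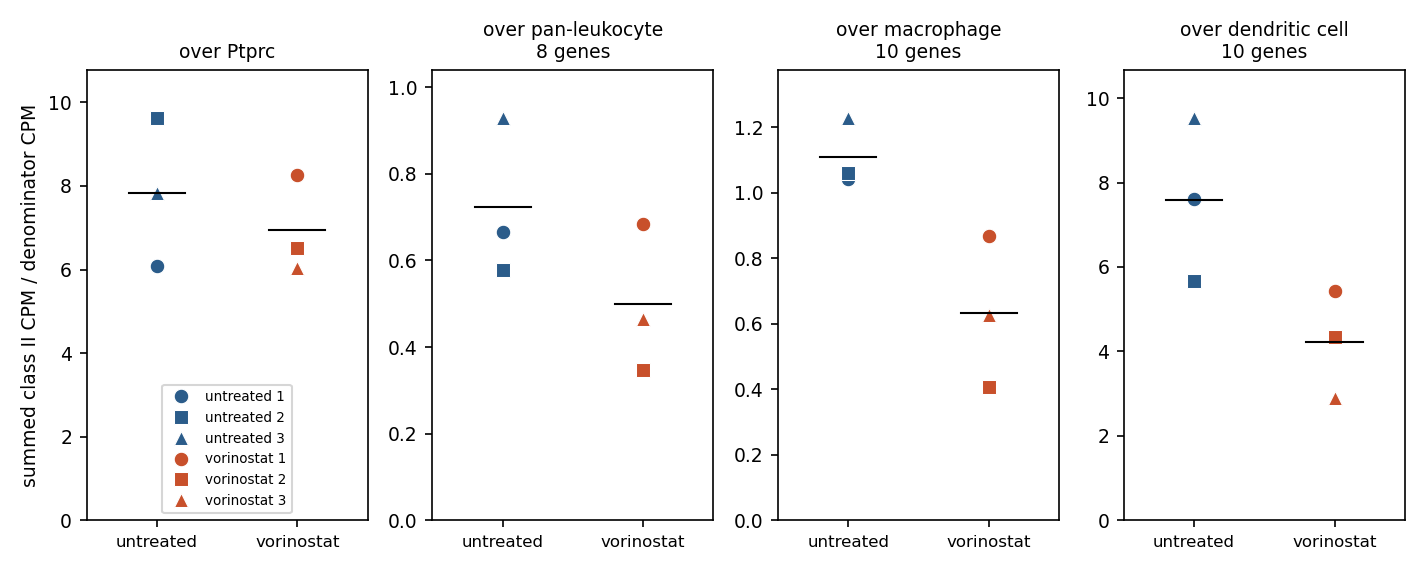
Summed CPM of the 10 class II pathway genes divided by Ptprc and by the summed CPM of the pan-leukocyte, macrophage and dendritic cell lists in each tumour (circles, squares and triangles for tumours 1, 2 and 3, a bar at the mean). The groups overlap over Ptprc and the pan-leukocyte list, and the 3 vorinostat tumours lie below the 3 untreated tumours over the macrophage and dendritic cell lists.

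The reads of the 10 genes were also divided by gene. H2-Aa took 20.4%, 21.4% and 21.2% of the reads of the 10 genes without vorinostat and 19.0%, 18.5% and 18.8% with it. It was the only gene of the 10 whose share had separate groups (exact permutation p = 0.1, the smallest possible, among 10 shares compared), and the 95% Wilson intervals of single tumours overlapped, for example 19.0% to 21.9% in untreated tumour 1 and 17.5% to 20.5% in vorinostat tumour 1. H2-Ab1 took 22.1% to 24.4% in untreated and 22.5% to 25.8% in vorinostat tumours, and Cd74 25.6% to 32.4% and 25.2% to 33.2%. The share of H2-DMb1 varied more, from 3.00% to 9.36% in untreated and from 3.26% to 9.41% in vorinostat tumours.

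Across the 6 tumours, the abundant members followed Ptprc. In log2(CPM + 0.5), Pearson's r with Ptprc was 0.956 for H2-Eb1 (rho 0.943, exact permutation p = 0.00417 and 0.0167), 0.942 for Cd74 (rho 0.886, exact p = 0.00833 and 0.0333), 0.934 for H2-Ab1 and 0.918 for H2-Aa (rho 0.829 and exact p = 0.00972 and 0.0583 for both). Adjusted over 14775 genes, these p-values were between 0.260 and 0.275 for r and between 0.489 and 0.544 for rho, and 0% of genes passed the threshold of 0.05. Unadjusted, 8.53% of all genes had a positive r with an exact p under 0.05. An r as high as that of H2-Eb1 was reached by 0.880% of genes, and one as high as that of H2-Aa by 2.61%. Without untreated tumours 2 and 3, the farthest from the median of Ptprc, r over the other 4 was 0.959, 0.876, 0.859 and 0.938 for the same 4 genes.

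The less abundant members were less alike to Ptprc. H2-DMb2 had r = 0.861, Ciita 0.792 and H2-DMa 0.784, while H2-Ob had 0.307 and H2-DMb1 0.299, and the exact permutation p of these 5 was between 0.0278 and 0.586. Without the same 2 tumours, r was 0.393 for H2-DMb2, 0.436 for Ciita and 0.904 for H2-DMa, so the first 2 rest on those tumours. In TPM, r turned negative for H2-DMb2, Ciita, H2-Ob and H2-DMa, at -0.76, -0.37, -0.33 and -0.063. It stayed between 0.740 and 0.897 for the 4 abundant genes. The groups could not be examined separately, since 3 tumours are too few for a correlation.

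The genes most like the mean of the 4 abundant members were not leukocyte genes by symbol. Of 7856 candidates with a mean of at least 5 CPM, the 10 with the highest r over 6 tumours were Tead2 (r = 0.998), Rps28, Otud3, Xrcc1, Rpl37a, Rpl6, Rps6, Vti1b, Rpl32 and Rps12-ps3 (r = 0.992). Of these, 6 are ribosomal protein genes or a pseudogene of one. All 10 were highest in untreated tumour 3, for example Rps6 at 594 CPM there and 271 to 391 CPM in the other 5 tumours. Members and candidates share the scaling of each library, with a TMM factor of 0.364 in untreated tumour 3, and its part in these r was not tested. A high r takes no account of the size of the differences. The log2 fold changes of these 10 lay between -0.49 and -0.21, against -1.01 to -0.74 for the 4 members. An r of at least 0.9 was reached by 376 candidates, or 4.79%.

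The machinery that acts on class II promoters showed no called difference. Of the 7 genes for RFX, NF-Y and CREB1, 5 were lower and 2 higher, with a median log2 fold change of -0.07. Creb1 had the smallest p, at 31.6, 21.2 and 37.4 CPM in untreated and 22.7, 20.6 and 21.3 CPM in vorinostat tumours (-0.48 ± 0.19 in log2 fold change and SE, edgeR adjusted p = 0.743). Untreated tumour 2 lay among the vorinostat tumours. In the route from interferon gamma to Ciita, 7 of 8 genes were tested, 3 higher and 4 lower, with a median of -0.09. Ifng itself, at no more than 0.502 CPM in any tumour, did not pass the filter. Jak2, a kinase of the interferon gamma receptor, had the smallest p of this list, at 17.2, 10.9 and 20.9 CPM in untreated and 12.6, 13.5 and 10.9 CPM in vorinostat tumours, with overlap (-0.39 ± 0.22 in log2 fold change and SE, edgeR adjusted p = 0.745). Irf1, a transcription factor on that route, was at 13.01, 11.4 and 11.2 CPM in untreated and 13.8, 13.8 and 13.99 CPM in vorinostat tumours, all of them higher (0.22 ± 0.15 in log2 fold change and SE, edgeR adjusted p = 0.767), as were 6.53% of all genes.

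Of 7 genes for antigen processing and turnover of class II, 5 were lower and 2 higher, with a median of -0.38 and none called. Ifi30, a lysosomal reductase of antigens, was at 18.1, 17.3 and 23.2 CPM in untreated and 16.3, 12.3 and 15.2 CPM in vorinostat tumours (log2 fold change -0.42 with SE 0.17). March8, a ubiquitin ligase, was at 21.4, 19.5 and 27.7 CPM against 19.2, 17.2 and 15.97 CPM (log2 fold change -0.38 with SE 0.16). Both had all vorinostat tumours lower, as had 5.53% of all genes tested, and an edgeR adjusted p of 0.743. Ctss, the protease that trims the invariant chain, had a log2 fold change of -0.49 (SE 0.39) with overlap. Of 7 genes for costimulation and for T cell proteins that bind class II, 5 were tested, 3 higher and 2 lower, with a median of 0.12.

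Lists for the cells that carry class II held no called gene in the edgeR fit of all 6 tumours with the filter on low counts. The pan-leukocyte list had 7 of 8 genes lower and a median of -0.41, with Cd53 at -0.89 (SE 0.38, edgeR adjusted p = 0.743). The macrophage list had 5 of 10 lower and a median of 0.05, with the defining markers Csf1r at -0.30 (SE 0.30) and Adgre1 at -0.05 (SE 0.36). Of the dendritic cell list, 7 of 10 were tested, 4 lower and 3 higher, with a median of -0.08. Its marker Zbtb46 was at 3.51, 3.23 and 2.47 CPM in untreated and 4.24, 4.14 and 5.65 CPM in vorinostat tumours. All its vorinostat values were higher, as were those of 6.53% of all genes tested (log2 fold change 0.58 with SE 0.28, edgeR adjusted p = 0.743). The marker Flt3 was at 0.54 (SE 0.68). Of the B and plasma cell list, 6 of 10 were tested with a median of -0.41. These medians moved with single tumours. Without untreated tumour 3 they were 0.32 for the macrophage, 0.42 for the dendritic cell and 1.01 for the B and plasma cell list, beside -0.25 for the members. Without untreated tumour 2 the pan-leukocyte median was -0.72, with 2 of its genes called. No difference between these lists and the members was tested.

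Lists for other cells held no called gene in that filtered fit of all 6 tumours either. The medians were -0.07 over 9 T cell genes tested, -0.90 over 4 neutrophil genes, 0.24 over 3 endothelial genes, -0.86 over 6 fibroblast genes and 0.04 over 7 melanocyte genes. Of the fibroblast genes 5 were lower and 1 higher. Col3a1 was at -2.34 (SE 0.63), and the defining markers Col1a1 and Dcn were at -0.87 (SE 0.40) and -1.78 (SE 0.89). The groups overlapped for these fibroblast genes, each at an edgeR adjusted p of 0.743. The summed levels of the macrophage list ran from 60.6 to 180.8 CPM in untreated and from 100.9 to 127.2 CPM in vorinostat tumours, and those of the dendritic cell list from 11.4 to 23.3 and from 11.9 to 21.9 CPM. The part of these cells in the members' values was not tested.

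The stretch of chromosome 17 that holds 8 of the members, chr17:34092340-34316674 (GRCm38), is 224 kb long and has 13 protein-coding genes. The other 5 are Brd2 and the class I pathway genes Psmb9, Tap1, Psmb8 and Tap2. All 5 were tested, 3 lower and 2 higher, with a median log2 fold change of -0.06 and none called. Tap2, a subunit of the peptide transporter, had the smallest p, at 10.03, 8.87 and 10.7 CPM in untreated and 8.04, 7.26 and 7.80 CPM in vorinostat tumours (log2 fold change -0.35 with SE 0.17; edgeR adjusted p = 0.743). Psmb8 was at -0.38 (SE 0.29), Tap1 at -0.06 (SE 0.31), Brd2 at 0.17 (SE 0.15) and Psmb9 at 0.30 (SE 0.34). The difference between these neighbours and the members was not tested.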

How the data were processed

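Salmon gene tables of 6 libraries of total RNA (paired reads of 150 bases) were used. Per the submitters' processing notes, FastQC, Trim Galore, Salmon and GRCm38 were used, with no version or setting stated there. The deposited tables give estimated counts (expected counts) per gene, TPM and, per the file headers, length and effective length. Estimated counts were rounded to whole reads. GENCODE release 21 for mouse named 44118 of the 44679 identifiers.

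Counts were scaled by TMM, filtered with filterByExpr and tested with edgeR 4.0.16 (R 4.3.3) by its quasi-likelihood test over all genes with all 6 libraries, with Benjamini-Hochberg adjustment and a threshold of 0.05. The SE of an edgeR log2 fold change was the absolute log2 fold change divided by the square root of the test's F statistic. Log2 ratios to Ptprc used CPM + 0.1 and exact permutation over 20 splits, and their SE came from the SDs within each group. Correlations used log2(CPM + 0.5), exact permutation over 720 pairings and adjustment over all genes. DESeq2 1.42.0, limma 3.58.1 and other scalings, filters and left-out libraries were alternatives. In simulated counts, the test on the TMM scale recovered 42% of 100 genes changed 2-fold. A missing call therefore does not show that a difference is absent. Of 99 genes changed 4-fold it recovered 80.8%, and it made 12 false calls. On the Ptprc scale the simulation gave 9121 false calls with noise in Ptprc and 11 with Ptprc at its mean. Likeness was ranked among genes of at least 5 CPM with a usual symbol. Named genes were all members, Ptprc, part of the defining markers, genes with a small p from some of the lists, and neighbours between the outermost members. The 14 lists were written by hand. Members and lists were chosen with earlier results of these data known. The Ptprc permutation test, the libraries left out of the lists and the promoter motifs were added after the values were seen. Intervals are 95% Wilson intervals. Promoters came from RefSeq (GRCm38.p6).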

Additional observations from a re-analysis of the deposited data

How the results depend on the processing

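No paired analysis was possible because the tumours of the 2 groups share only 1 number in their labels (N1) and no G number occurs in both groups. limma-voom with the G number as a random block within groups (consensus correlation 0.124) called no member.

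Over the alternatives, genes called numbered 156 with no low-count filter (49 higher, 107 lower), 11 with DESeq2, 6 with limma-voom and quality weights, 39 with limma on log2(TPM + 1), of which 36 were higher, and 52 on log2(TPM + 0.1), of which 49 were higher. Members called numbered 3 with no filter and 0 otherwise while all libraries were kept. The members' median was -0.052 with the satellite covariate, -0.11 and -0.14 on the TPM scales (all genes 0.26 and 0.51) and -0.23 without untreated tumour 3 and vorinostat tumour 3. Leaving out each library in turn gave 0 to 121 genes called, 0 to 2 members called and a median from -1.11 to -0.25.

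Signs turned in these cases. With the satellite covariate, H2-Ab1 was 0.10, H2-DMb2 0.52, Cd74 0.16 and Ptprc 0.19. H2-DMb2 was 0.22 and 0.54 on the TPM scales, and ranged from -0.91 to 0.32 with libraries left out. H2-Ob was -0.34, -0.38 and -0.30 in limma-voom alone, with quality weights and with the block, and ranged from -0.27 to 0.93.

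On leukocyte scales, genes called numbered 1 per pan-leukocyte, 2 per macrophage and 6 per dendritic cell reads. There H2-DMb2 was -0.033, -0.24 and -0.43 and Ciita -0.26, -0.50 and -0.66. On the Ptprc scale without untreated tumour 3 and vorinostat tumour 3, H2-Ab1 was 0.038, H2-Ob -0.17, Cd74 0.032 and Ciita -0.40. With each library left out there, genes called ran from 0 to 8116, H2-Ab1 from -0.26 to 0.10, H2-DMa from -0.70 to 0.024, H2-DMb1 from -0.66 to 0.57, H2-Ob from -0.0012 to 1.39 and Ciita from -0.39 to 0.44. Against Ptprc in TPM, r was -0.063 for H2-DMa, -0.76 for H2-DMb2, -0.33 for H2-Ob and -0.37 for Ciita. The causes were not tested. H2-Oa, H2-Ob and H2-DMb2 have too few reads at this depth for a difference to be seen.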
